A study of Rattus norvegicus with 8 samples.

Results

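The VEGF and angiopoietin systems were followed in the ovary through 10 genes, of which 6 encode receptors or co-receptors (Flt1, Kdr, Nrp1, Eng, Tek and Tie1) and 4 encode ligands (Vegfa, Pgf, Angpt1 and Angpt2). Members were the non-control probes whose gene name in the scanner files equals 1 of these symbols, which gave 10 of the 26214 gene names and 14 of the 30367 probes on the array, 4 for Vegfa, 2 for Pgf and 1 for each of the other 8 genes. All 14 probes passed the filter on dim signals and were among the 25303 probes tested, and 13 of them were well above background on all 8 arrays. The rule takes the genes by name and uses no measured value.

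Whole-ovary total RNA of immature female rats had been hybridised to 1-colour Agilent arrays, of which 4 carry the label control and 4 the label PMSG. This abbreviation stands for pregnant mare serum gonadotropin, which mainly acts like follicle-stimulating hormone. The labels' protocols state that rats 26 days old received an injection of 0.2 ml under the skin. It held either 50 IU of PMSG or the carrier alone, an albumin phosphate buffer. Ovaries were removed 48 h later, at 28 days of age. The sample titles call the control arrays a reference without treatment and do not mention the carrier. The labels number the arrays of a group 1 to 4 and give no animal, strain or pooling, so p-values measure the spread between these arrays, which may be technical. In whole ovary, fewer cells of a type and less RNA per cell cannot be told apart.

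VEGF-A is the main growth signal of blood vessels. It acts on endothelial cells through the receptor tyrosine kinase KDR, while FLT1 binds VEGF-A and placental growth factor (PGF) tightly and, in its soluble form, takes them out of circulation, and neuropilin 1 (NRP1) is a co-receptor. Angiopoietin 1 activates the receptor TEK and steadies vessels, angiopoietin 2 mostly opposes it, and TIE1 is an orphan-like partner of TEK. Endoglin (ENG) is an endothelial co-receptor for TGF-beta family ligands. In the ovary, vessels lie in the theca around the follicle and enter the granulosa layer only after ovulation, so the vascular bed is rebuilt in each cycle.

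The probes behind the results are shown here because their place in the transcript decides which forms of a gene they can detect. All are 60 bases long and are printed in transcript orientation as the scanner files list them. The Flt1 probe (chr12:7957094-7957153 in rn4, listed at transcript position 2054) lies in the part coding for the extracellular region, upstream of the kinase part. The Tek probe (chr5:115178576-115178635, position 3227) and the Tie1 probe (chr5:138950263-138950322, position 2791) lie in the kinase-coding part of their transcripts. The Eng probe is listed as unmapped in rn4, at transcript position 1955, and the Nrp1 probe, at position 2861, is listed from 58482301 to 58482792 on chromosome 19, a span longer than the probe itself. The Angpt1 probe (position 961) lies in the coiled-coil part and the Angpt2 probe (chr16:75939239-75939298, position 1331) in the fibrinogen-like part that contacts TEK.
Flt1: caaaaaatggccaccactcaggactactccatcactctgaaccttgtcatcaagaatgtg
Nrp1: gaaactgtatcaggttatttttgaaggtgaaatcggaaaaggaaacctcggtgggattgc
Eng: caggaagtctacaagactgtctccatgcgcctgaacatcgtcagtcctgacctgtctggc
Tek: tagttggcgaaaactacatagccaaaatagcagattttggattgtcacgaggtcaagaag
Tie1: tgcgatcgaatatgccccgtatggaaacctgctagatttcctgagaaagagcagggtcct
Angpt1: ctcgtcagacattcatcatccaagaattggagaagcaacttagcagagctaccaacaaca
Angpt2: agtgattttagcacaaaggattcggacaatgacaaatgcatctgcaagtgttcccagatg

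The 4 Vegfa probes sample different stretches of 1 gene and are numbered here by brightness. In transcript order they are probe 3, in the receptor-binding domain; probe 2 (chr9:10528551-10528610 in rn4, transcript position 1342), in the next coding stretch; probe 4 (chr9:10531972-10532031, position 1576), in the heparin-binding part that the shortest isoform lacks; and probe 1 (chr9:10535933-10535992, position 3407), near the 3′ end of the transcript. Probes 2 and 4 are shown because they lie in the coding part and passed the test, as probe 3 did and probe 1 did not.
Vegfa probe 2: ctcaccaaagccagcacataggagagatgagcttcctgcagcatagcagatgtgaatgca
Vegfa probe 4: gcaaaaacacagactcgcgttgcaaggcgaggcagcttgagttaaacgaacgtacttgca

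None of the 14 probes shared a stretch of 20 bases with another probe of the array (0 other probes for each). Different probes differ in brightness for reasons of design, so levels are compared between arrays for 1 probe and never between probes.

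Across the whole array, the 75th percentile of the signal ran from 769 to 1103 and the share of probes well above background from 80.8% to 84.5%. Every array correlated better on average with arrays of its own label than with those of the other. Of the 25303 probes, 8658 (34.2%) passed an adjusted p of 0.05 in limma, 17.6% higher and 16.6% lower in arrays labelled PMSG. Over all probes tested the median difference was 0.11 on the log2 scale, against which small differences are to be read. Markers of the ovary were present, with 11 of 11 oocyte genes, 9 of 10 granulosa genes and 8 of 8 theca genes tested. Cyp19a1, the aromatase gene, was read by 1 probe listed under another name, which was above background on 0 arrays. Whether the gene was expressed cannot be told from this probe alone. Star (-2.75) and Lhcgr (-1.93), genes of steroid synthesis and of the luteinising hormone receptor that gonadotropin treatment is generally known to raise, were lower in arrays labelled PMSG, as was Cyp11a1 (-3.36). Other called theca genes were higher, namely the hormone gene Insl3 (2.60) and the hedgehog targets Gli1 (0.87) and Ptch1 (0.79), and Cyp17a1 (-0.22) and Hsd3b1 (0.07) did not pass. The called granulosa genes were Amh (3.03) and Esr2 (0.95), higher, and Nr5a2 (-1.47) and Inhba (-1.32), lower. All 11 oocyte genes tested were called higher, with a median of 1.94. All directions follow the sample labels as given, and whether the labels match the treatment was not tested. The arrays are named by label.

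At the brightest probe of each gene, the genes that passed the test all encode receptors or co-receptors. Of the 6 receptor genes, 5 were lower in arrays labelled PMSG (Flt1, Kdr, Nrp1, Eng and Tek), and 0 of the 4 ligand genes passed at that probe. The ligand gene Vegfa passed as lower at 3 of its 4 probes, all less bright than the one counted. The difference between receptors and ligands was not tested. Counted over the 10 genes, 5 passed the threshold and these 5 were lower, against 34.2% of all probes that passed in either direction and 16.6% that passed as lower. In 5 genes no array of 1 label reached the range of the other, against 36.6% of all probes. In Flt1, Kdr, Eng and Tek the PMSG label was below (18.6% of all probes) and in Angpt2 above (17.9%). The median log2 difference of the 10 genes was -0.47, and 7 of the 10 had an unadjusted p under 0.05, as did 45.4% of all probes tested.

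**Figure D1:**
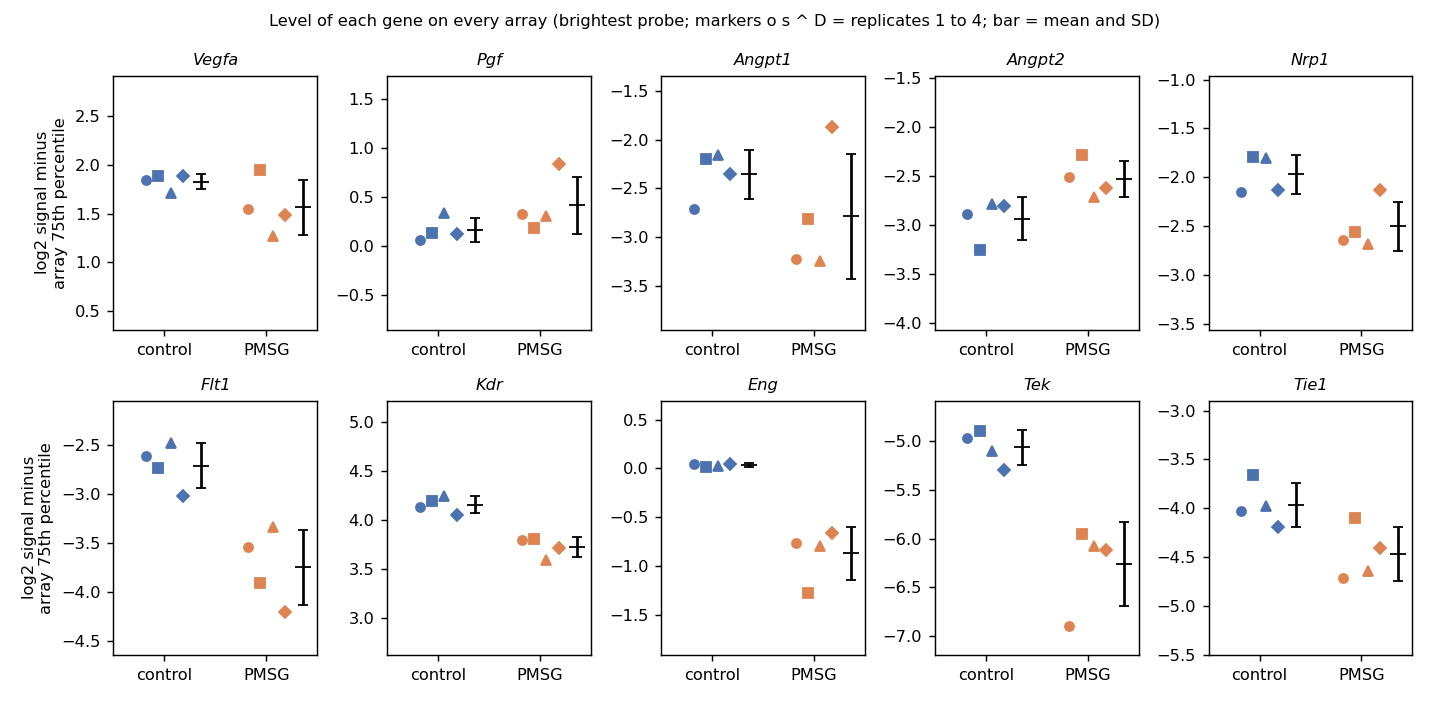
Log2 signal minus the array's 75th percentile of the 10 genes (brightest probe) on the 4 control-labelled and 4 PMSG-labelled arrays, 1 panel per gene with the same span of the y axis; symbols mark replicates 1 to 4 and bars the mean and SD. Flt1, Kdr, Eng and Tek separate with PMSG below control, Angpt2 separates with PMSG above, and the other panels overlap.

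Flt1, which encodes the high-affinity VEGF and PGF receptor, had levels of -2.61, -2.73, -2.48 and -3.02 in arrays 1 to 4 of the control label and of -3.54, -3.91, -3.34 and -4.21 in arrays 1 to 4 of the PMSG label (log2 signal minus the 75th percentile of the array; all values below keep this order). Every PMSG-labelled array lay below every control-labelled array. The labels differed by -1.04 log2 units (SE 0.21, limma adjusted p = 0.00574), a 2.06-fold lower signal. Normexp background correction reduced it to -0.63, which kept its call. The probe detects the stretch that membrane-bound and soluble FLT1 share, so the forms were not distinguished.

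Kdr encodes the receptor that carries most of the VEGF growth signal. It stood at 4.13, 4.20, 4.25 and 4.05 in arrays labelled control and at 3.80, 3.81, 3.59 and 3.71 in arrays labelled PMSG, without overlap. The labels differed by -0.43 log2 units (SE 0.10, limma adjusted p = 0.00948), a 1.35-fold lower signal. Quantile normalization brought it to -0.30, where it narrowly missed the threshold (limma adjusted p = 0.0505), and its alternatives spanned 0.00436 to 0.224. The decrease was thus small but steady between arrays, with SDs of 0.09 and 0.10 (n = 4 each).

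Nrp1, the co-receptor gene, stood at -2.15, -1.79, -1.80 and -2.13 against -2.64, -2.56, -2.68 and -2.13, and so ranged from -2.15 to -1.79 in arrays labelled control and from -2.68 to -2.13 in arrays labelled PMSG. PMSG-labelled array 4, at -2.13, reached into the control range, and the other 3 lay below it. Nrp1 thus differed by -0.54 (SE 0.16, limma adjusted p = 0.0313), a 1.45-fold lower signal. This call rested on single arrays: it was lost without control array 2 (0.0862), control array 3 (0.0802), PMSG array 1 (0.0782), PMSG array 2 (0.0714) or PMSG array 3 (0.0723). It was also lost with the replicate block (limma adjusted p = 0.0758).

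Eng, encoding endoglin, was the most even gene among control-labelled arrays, at 0.05, 0.01, 0.02 and 0.05. In arrays labelled PMSG it stood at -0.76, -1.27, -0.79 and -0.66. All 4 lay far below the control values, with array 2 the lowest. Eng differed by -0.90 (SE 0.14, limma adjusted p = 0.00186), a 1.87-fold lower signal that kept its call without any 1 array (log2 differences from -0.97 to -0.77).

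Tek encodes the angiopoietin receptor. Its probe was dim, with unscaled signals from 28.1 to 35.2 in arrays labelled control and from 8.26 to 16.6 in arrays labelled PMSG. Scaled levels were -4.97, -4.90, -5.10 and -5.30 against -6.89, -5.95, -6.08 and -6.12, without overlap. PMSG-labelled array 1 was not well above background, so the decrease is given as at least 2.02-fold, beside measured means of -5.07 and -6.26 (limma adjusted p = 0.00345). With normexp background correction, which adds an offset of 50 to every signal, the log2 difference went from -1.20 to -0.20 and the call was lost (limma adjusted p = 0.175). It also missed the threshold within slide row 1 (0.0557) and within slide row 2 (0.11), with 2 arrays against 2 each. These rows were inferred from the names of the scanner files. Tek drops out of a test limited to probes above background on all 8 arrays. In the other 15 alternatives it passed, with adjusted p-values down to 0.00199.

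Tie1, the partner receptor of TEK, was the receptor gene that missed the threshold. Its levels were -4.03, -3.66, -3.98 and -4.19 in arrays labelled control and -4.71, -4.10, -4.64 and -4.41 in arrays labelled PMSG. Array 2 of the PMSG label lay within the control range. Tie1 differed by -0.50 (SE 0.17, limma adjusted p = 0.0521), and it passed in 6 of 19 alternatives, among them the fit without PMSG array 2 (-0.62, 0.0229) and quantile normalization (-0.76, 0.0457). The highest adjusted p among them was 0.319.

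**Figure D2:**
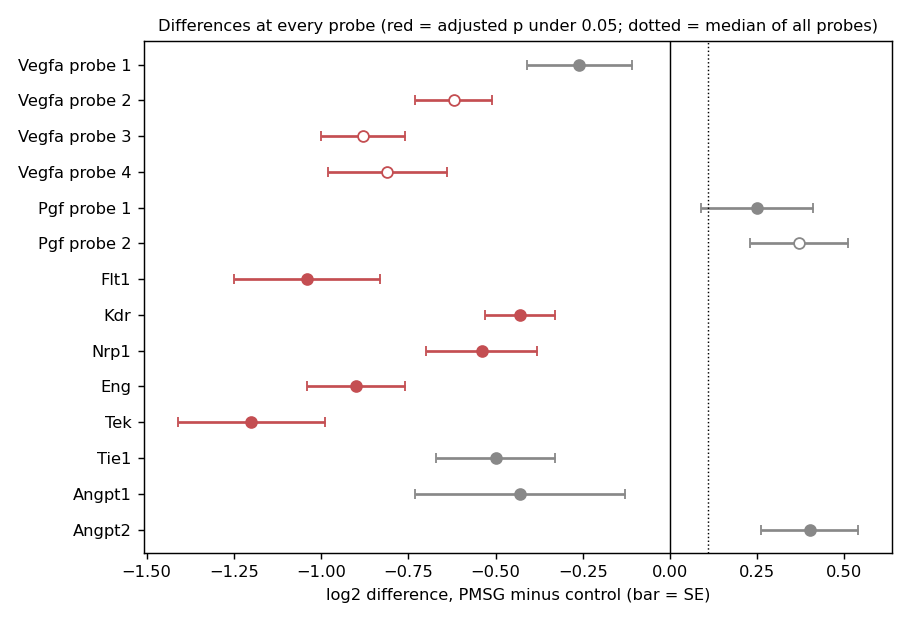
Log2 difference, arrays labelled PMSG minus arrays labelled control, at each of the 14 probes with its SE; red marks an adjusted p under 0.05, open circles the less bright probes of Vegfa and Pgf, and the dotted line the median of all tested probes (0.11). Values below 0 run from -1.20 for Tek to -0.26 for Vegfa probe 1, and Pgf and Angpt2 lie above 0.

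At Vegfa the call depended on the probe, and the difference between its probes was not tested. At probe 1, the brightest and nearest to the 3′ end, levels were 1.84, 1.88, 1.71 and 1.88 in arrays labelled control and 1.55, 1.95, 1.27 and 1.49 in arrays labelled PMSG. PMSG-labelled array 2 was the highest of all 8 arrays there, and the log2 difference of -0.26 (SE 0.15) did not pass (limma adjusted p = 0.198). Without PMSG array 2 it passed (-0.39, 0.0378).

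The 3 Vegfa probes in the coding part were lower in arrays labelled PMSG, each without overlap between groups. Probe 3, in the receptor-binding domain, stood at -2.71, -2.50, -2.70 and -2.68 against -3.75, -3.38, -3.38 and -3.59, a difference of -0.88 log2 units (SE 0.12, limma adjusted p = 9.14e-04). Probe 2 differed by -0.62 (SE 0.11, limma adjusted p = 0.00329), with control-labelled arrays from -1.70 to -1.35 and PMSG-labelled arrays from -2.25 to -2.01. Probe 4, in the heparin-binding part, differed by -0.81 (SE 0.17, limma adjusted p = 0.00828), from -4.09 to -3.52 against -4.93 to -4.27. These 3 decreases kept their calls without any 1 array, while normexp correction lowered those of probes 3 and 4 to -0.53 and -0.32. The mean over the 4 probes differed by -0.64 (exact two-sided permutation test, p = 0.0286, the smallest that 4 arrays against 4 can give).

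**Figure D3:**
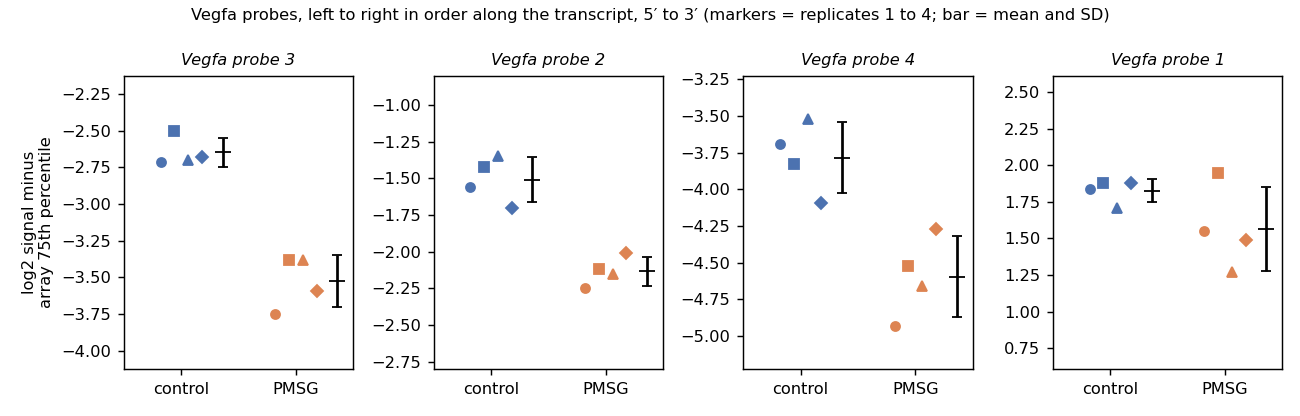
Log2 signal minus the array's 75th percentile of the 4 Vegfa probes in transcript order, 5′ to 3′, on the control-labelled and PMSG-labelled arrays (symbols, replicates 1 to 4; bars, mean and SD; y axes of equal span). Groups separate at probes 3, 2 and 4 and overlap at probe 1.

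Pgf, encoding the FLT1 ligand placental growth factor, was not shown to differ. Its bright probe (chr6:109215543-109215602 in rn4) stood at 0.06, 0.13, 0.34 and 0.12 in arrays labelled control and at 0.33, 0.18, 0.31 and 0.84 in arrays labelled PMSG, with array 4 the highest. At this probe the groups differed by 0.25 (SE 0.16, limma adjusted p = 0.234). The dim probe (chr6:109220045-109220104) ranged from -5.68 to -5.06 against -5.01 to -4.86 and differed by 0.37 (SE 0.14, limma adjusted p = 0.0797). Both probes were higher in arrays labelled PMSG under all 19 alternatives, and 0 of these alternatives passed at either probe. The mean over both probes differed by 0.31 without overlap (exact two-sided permutation test, p = 0.0286, not adjusted).

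Angpt1, the activating TEK ligand, varied most. It stood at -2.71, -2.20, -2.16 and -2.35 in arrays labelled control and at -3.22, -2.81, -3.24 and -1.87 in arrays labelled PMSG. Array 4 of the PMSG label was the highest of all 8 arrays, and the other 3 lay below all control-labelled arrays. The labels differed by -0.43 log2 units (SE 0.30, limma adjusted p = 0.297). Leaving out that array took the difference to -0.73 and past the threshold (limma adjusted p = 0.0143), while the alternatives spanned up to 0.928, so 1 array decided this result.

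Angpt2, the antagonist, was 1 of the 2 genes with a higher mean in arrays labelled PMSG. It stood at -2.89, -3.26, -2.79 and -2.81 in arrays labelled control and at -2.51, -2.29, -2.72 and -2.62 in arrays labelled PMSG. The groups did not overlap, but by a narrow margin, and the log2 difference of 0.40 (SE 0.14) missed the threshold (limma adjusted p = 0.0609). It passed with array weights (0.46, 0.0431) and with normexp correction (0.33, 0.0338), and not in the other 17 alternatives.

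Whether members changed unequally was tested within arrays for 8 pairs, as the log2 level of 1 gene minus that of another. Of these pairs, 0 passed an exact two-sided permutation test after adjustment over the 8, a design in which at least 5 pairs would have had to reach the smallest p. The level of Angpt2 minus that of Tek, its receptor, was 2.07, 1.65, 2.30 and 2.48 in arrays labelled control and 4.38, 3.66, 3.36 and 3.50 in arrays labelled PMSG. This difference of 1.60 showed no overlap (exact permutation p = 0.0286, adjusted 0.114). Its highest value, 4.38, comes from the array on which Tek was not well above background, and with Tek at its bound the difference was 1.42. The level of Tek minus that of Tie1 differed by -0.70, again without overlap (exact permutation p = 0.0286, adjusted 0.114), and by -0.51 with Tek at its bound. Normexp correction reduced these differences to 0.54 for Angpt2 against Tek and to -0.03 for Tek against Tie1.

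The other pairs overlapped between groups. The level of Angpt2 minus that of Angpt1 differed by 0.83 (exact permutation p = 0.114), with PMSG-labelled array 4 at -0.74 within the control range of -1.06 to -0.19 and the other 3 PMSG-labelled arrays from 0.51 to 0.71. Flt1 minus Kdr, the VEGF receptors, differed by -0.61 (exact permutation p = 0.0857). Vegfa minus Flt1 differed by 0.78 (exact permutation p = 0.0857), Vegfa minus Pgf by -0.52 (exact permutation p = 0.114), Vegfa minus Kdr by 0.17 (exact permutation p = 0.314) and Nrp1 minus Kdr by -0.10 (exact permutation p = 0.514). In these pairs Vegfa stands for its probe 1 alone (-0.26). Its other probes, with larger decreases (-0.62, -0.88 and -0.81), were not tested in pairs.

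The members were set against other endothelial genes of the same arrays. Of 25 endothelial markers listed, 22 were tested, Tie1 among them. They did not move together: Icam2 (-0.89), Sox18 (-0.62), Esam (-0.58), Gpr116 (-0.55) and Fli1 (-0.51) were lower in arrays labelled PMSG, while Cldn5 (1.55), Sox17 (0.96), Sox7 (0.85) and Vwf (0.50) were higher, and 13 did not pass (40.9% called, against 34.2% of all probes). Pecam1 and Erg, markers of all endothelial cells, differed by -0.16 and -0.01 (limma adjusted p = 0.409 and 0.967). The median log2 difference of the list was -0.04, against 0.11 over all probes. Without Tie1, the control-labelled arrays had a mean level over 21 markers of -0.84 ± 0.11 (SD, n = 4), against -0.82 ± 0.06 (SD, n = 4) for those labelled PMSG (exact two-sided permutation test, p = 0.657).

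Relative to that mean, Flt1 differed by -1.07, Tek by -1.22, Eng by -0.93, Nrp1 by -0.56, Kdr by -0.46 and Pgf by 0.23, each without overlap between the groups (exact two-sided permutation test, p = 0.0286, adjusted over 10 genes 0.0476). Over all tested probes, 32.3% showed no overlap by the same measure. The marker mean itself differed by 0.03 between the labels, over markers that were called in both directions. The differences relative to it are therefore close to those before subtraction and are no second test of them. Whether the mean follows the number of endothelial cells was not tested. For Tek the difference was -1.04 with its levels at the bound and -0.23 with normexp correction (adjusted exact permutation p = 0.0952). For Pgf the margin was narrow, with PMSG-labelled arrays from 1.04 to 1.65 and control-labelled arrays from 0.94 to 1.04. Passing after adjustment needs at least 6 of the 10 genes at the smallest p, and 6 reached it, Pgf among them. The calls of the receptor genes by this measure thus depend on Pgf. With the median of the markers in place of their mean, Nrp1 no longer passed (-0.46, adjusted exact permutation p = 0.0816) and Angpt2 did (0.48, 0.0476). Tie1 (-0.53, exact permutation p = 0.0857), Angpt2 (0.38, exact permutation p = 0.0571), Angpt1 (-0.46) and Vegfa at probe 1 (-0.29) overlapped. The other Vegfa probes were not set against the markers. With normexp correction Flt1, Kdr, Nrp1 and Eng still reached the smallest p, but 0 of the 10 passed after adjustment, which needs at least 6 at that p.

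**Figure D4:**
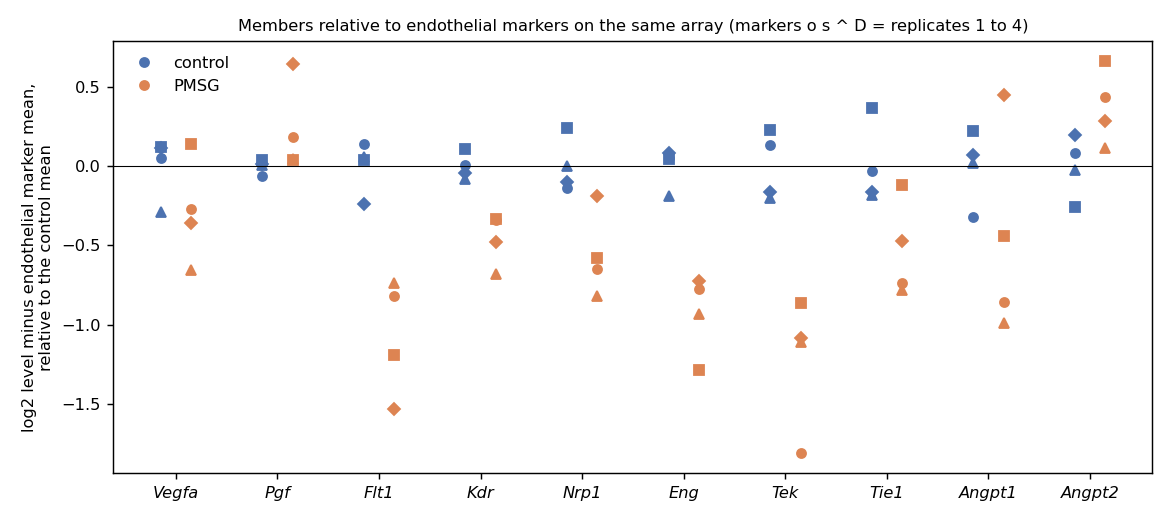
Log2 level of each of the 10 genes minus the mean of 21 endothelial markers on the same array, drawn relative to the mean of the control-labelled arrays; symbols mark replicates 1 to 4. Flt1, Kdr, Nrp1, Eng and Tek lie below the control-labelled arrays on all 4 PMSG-labelled arrays.

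Related genes of the VEGF family fell into 3 that were lower and 5 that did not pass, of 8 tested. The share called was 37.5%, near the 34.2% of all probes. Plxnd1 (-0.64, limma adjusted p = 0.00205), Plxna1 (-0.46, 0.0352, a probe the files name RGD1560871) and Sema3a (-0.49, 0.0481), genes of semaphorin signalling through neuropilins and plexins, were lower in arrays labelled PMSG. Vegfb differed by -0.01, Vegfc by 0.26, Figf, which encodes VEGF-D, by -0.42, Flt4, the lymphatic VEGF receptor gene, by 0.35 and Sema3f by 0.39, with limma adjusted p-values from 0.0547 for Figf to 0.971 for Vegfb. Nrp2 was above background on 3 of 8 arrays and was not tested. The median of this list was -0.21, and 1 gene passed without control array 1, 2 or 3.

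Among 7 tested partners and relatives of the angiopoietins, 5 passed (71.4%, against 34.2% of all probes). Angpt4, encoding another TEK ligand, was lower in arrays labelled PMSG, without overlap, a difference of -1.02 log2 units (SE 0.20, limma adjusted p = 0.00565). Angptl2 was lower by -0.39 (0.0145). Grb7, an adaptor that binds TEK and other receptor kinases, was higher by 2.26 (1.67e-04), Angptl6 by 1.37 (0.0239) and Angptl1 by 0.72 (0.0273, all limma adjusted p), the last from a probe above background on 1 control-labelled and 3 PMSG-labelled arrays. Dok2 (-0.88, limma adjusted p = 0.0788) and Angptl4 (-0.16, 0.648) did not pass. The median was -0.16, and 3 genes passed without control array 2, PMSG array 2 or PMSG array 3.

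The genes known as downstream of VEGF receptors, of which 20 were tested, included large decreases. Apln, encoding the vessel growth peptide apelin, stood at 2.83, 2.23, 2.79 and 2.61 in arrays labelled control and at 0.15, 0.15, 0.26 and 0.52 in arrays labelled PMSG, a difference of -2.34 log2 units (SE 0.16, limma adjusted p = 7.04e-05). Esm1, a marker of sprouting endothelial cells, differed by -1.60 (0.00133) and the protease gene Adamts9 by -1.44 (3.19e-04). Adamts1 (-1.31) and Nos3, the endothelial nitric oxide synthase gene (-1.26), were also lower and Src (0.47) was higher; these 3 are named because of their values. The other 14 did not pass, among them Nr4a1 (-1.44, limma adjusted p = 0.0536) and Dll4, the Notch ligand of sprouting cells (0.42, 0.253). The less bright Dll4 probe differed the other way, by -0.41. With 6 of 20 called (30.0%) and a median of -0.07, the list as a whole lay near the 34.2% of all probes.

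In the endoglin pathway 4 of 15 tested genes passed (26.7%, against 34.2% of all probes). Id2, a target of BMP signalling, was lower by -2.21 (SE 0.15, limma adjusted p = 6.66e-05). The related genes Id1 (0.49, limma adjusted p = 0.0906) and Id3 (-0.10, 0.816) did not pass. Tgfb1, encoding a ligand, was lower by -0.73 (limma adjusted p = 6.53e-04). Smad7, an inhibitor of the pathway, was higher by 1.31 (0.00247). Acvrl1, the gene of the receptor that endoglin assists, stood from 0.04 to 0.38 in arrays labelled control and from -0.10 to 0.37 in arrays labelled PMSG and differed by -0.04 (limma adjusted p = 0.833). Tgfbr3, encoding the co-receptor most like endoglin, differed by 0.61 (0.0589), and Tgfbr1, a type I receptor gene, was higher by 0.44 (0.0265). The median was 0.07, and 7 genes passed without PMSG array 4.

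Of 17 genes of the hypoxia response, the pathway best known to induce Vegfa, 4 passed, 2 in each direction. The share called was 23.5%, against 34.2% of all probes. P4ha1 (-0.72, limma adjusted p = 0.00745) and Pdk1 (-0.43, 0.04) were lower, and Egln3 (0.57, 0.0226) and Ankrd37 (0.55, 0.0247) were higher in arrays labelled PMSG. Car9 differed by 0.60 (0.0971). The genes of the oxygen-regulated factors, Hif1a (-0.11, 0.455) and Epas1 (0.14, 0.532), did not pass. The median was -0.16. Without control array 1 or 2 the count was 1 gene, and without control array 4 it was 2.

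Among 19 tested inhibitors and other regulators of angiogenesis, 5 passed (26.3%, against 34.2% of all probes). Col18a1, whose collagen product holds the inhibitor endostatin, was lower by -1.69 (SE 0.11, limma adjusted p = 6.51e-05), from between 3.85 and 3.99 in arrays labelled control to between 2.00 and 2.38 in arrays labelled PMSG. Cyr61 (-1.38, 5.25e-04) and Thbs2, a thrombospondin gene (-0.84, 0.0377), were also lower. Ctgf was higher by 0.96 (0.00436) and Serpinf1, encoding the inhibitor PEDF, by 0.79 (0.0381). The related matricellular genes Cyr61 and Ctgf thus differed in opposite directions. The median was 0.18. Without PMSG array 4 the count was 9 genes, and without control array 2 or 4 it was 3.

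**Figure D5:**
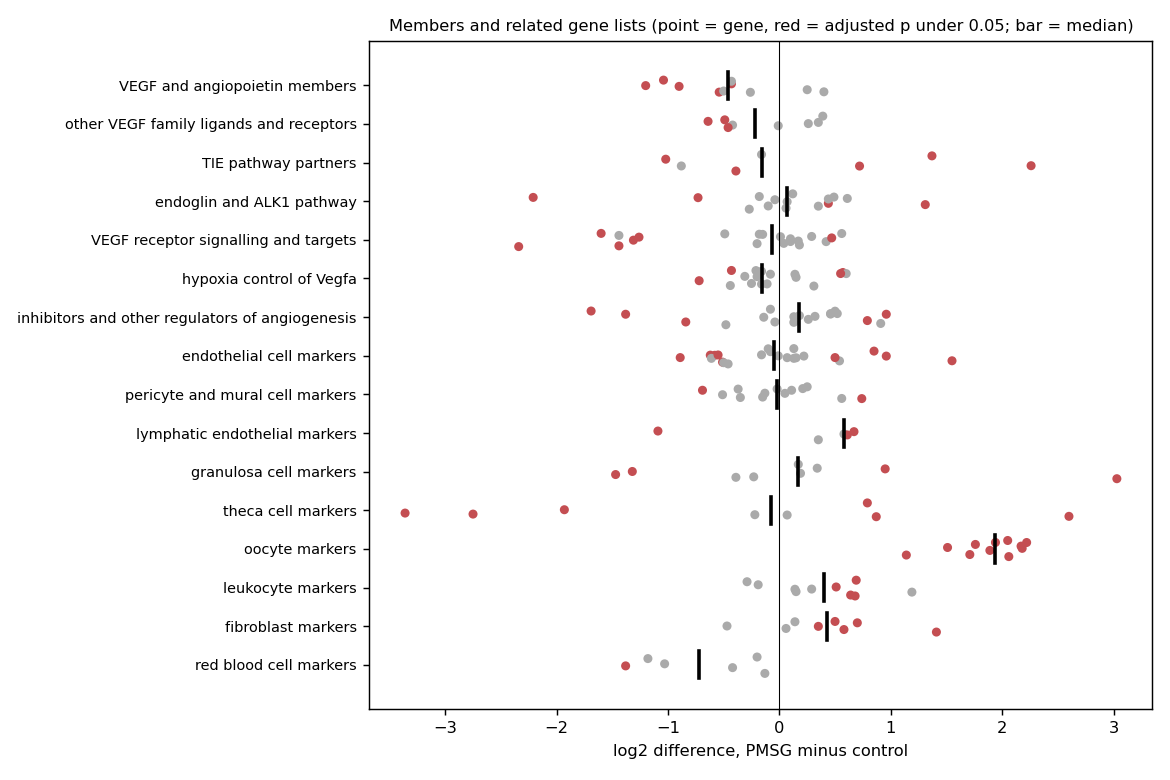
Log2 differences, arrays labelled PMSG minus arrays labelled control, of the 10 genes and of the 15 related lists and marker lists; each point is 1 gene, red marks an adjusted p under 0.05 and the black bar the list's median. The median of the 10 genes is -0.47, that of the endothelial markers -0.04 and that of the oocyte markers 1.94.

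Markers of other cell types of the vessel wall and of the tissue moved on the same arrays. Of 13 pericyte and mural markers 2 passed, Abcc9 (-0.69) and Anpep (0.74), with a median of -0.02. Of 5 tested lymphatic markers 3 passed, Lyve1 lower (-1.09) and Pdpn (0.67) and Reln (0.61) higher, while Prox1, the defining lymphatic factor, was above background on 0 arrays. Theca genes had mean levels from 1.73 to 1.92 in arrays labelled control and from 0.81 to 1.65 in arrays labelled PMSG, without overlap, with 6 of 8 called, 3 in each direction. Granulosa genes had overlapping mean levels, from 1.56 to 2.33 against 1.90 to 2.27. Of 9 tested, 4 were called, Amh (3.03) and Esr2 (0.95) higher and Nr5a2 (-1.47) and Inhba (-1.32) lower. Red blood cell genes had mean levels from 1.06 to 2.43 in arrays labelled control and from 0.60 to 1.16 in arrays labelled PMSG, with 1 of 6 called (Alas2, -1.38). Leukocyte genes had mean levels from -1.48 to -1.03 against -0.97 to -0.69, with 4 of 10 called, all higher. Oocyte genes had mean levels from -2.76 to -1.83 against -0.86 to -0.05 and fibroblast genes from 3.13 to 3.22 against 3.44 to 3.73. These counts are to be read against the 34.2% of all probes that passed. The part of these shifts in the members' differences was not tested.

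As a description of likeness over the 8 arrays, members were set against 13657 genes above background on all arrays, by the root mean square difference of profiles centred on their own mean. Closest to Eng were Hpcal1 (0.048 on the log2 scale), Parva (0.066) and Nmt1 (0.074), and closest to Flt1 were Matn1 (0.061), Nkain1 (0.111) and Tst (0.115). Kdr was nearest to Rtn4 (0.051), Vegfa to Nfkb1 (0.064) and Pgf to Tmem63a (0.08). Tie1 was nearest to Sema3a (0.115), Angpt1 to Triobp (0.113), Angpt2 to Fam208b (0.095) and Tek to Utp20 (0.186). Among the members themselves, each at its brightest probe, Vegfa and Kdr were the closest pair (0.18), followed by Kdr with Tie1 and with Nrp1 (0.19 each). No member was thus the nearest profile of another.

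The promoters of the members were searched for 3 motifs on both strands, and those of Flt1 and Kdr, the VEGF receptor genes that were both lower, are printed. RefSeq entries on GRCr8 matched 7 of the 10 genes, with 8 windows of 300 bases, from 250 before to 50 after the gene's start, of which 2 were for Vegfa. The motif ACGTG, the core bound by hypoxia-inducible factors, was found in 0 of the 8 windows and in 19.3% of all 33469 promoters. Sequence outside the windows was not searched, so whether these genes have such sites elsewhere cannot be told. GGAA, the core of ETS factor sites, was found in every window (3 to 5 matches) and in 95.8% of all promoters. GGGCGG, the SP1 site, occurred 3 times for Flt1, 3 times in 1 Vegfa window, 2 times for Pgf, once each for Kdr and Tie1 and 0 times for Eng and Nrp1, against 33.1% of all promoters with a match. The windows were rich in G and C, from 57.3% to 72.7%, against a median of 51.7% over all promoters. Capitals mark GGGCGG or its complement below.
Flt1, chr12:12333180-12333479 (GRCr8, plus strand): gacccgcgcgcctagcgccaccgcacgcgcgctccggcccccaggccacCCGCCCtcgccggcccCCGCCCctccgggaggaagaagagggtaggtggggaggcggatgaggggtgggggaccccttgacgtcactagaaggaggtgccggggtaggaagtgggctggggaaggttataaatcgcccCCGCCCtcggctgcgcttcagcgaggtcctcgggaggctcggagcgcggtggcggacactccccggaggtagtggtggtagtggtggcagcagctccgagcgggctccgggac
Kdr, chr14:32571813-32572112 (GRCr8, plus strand): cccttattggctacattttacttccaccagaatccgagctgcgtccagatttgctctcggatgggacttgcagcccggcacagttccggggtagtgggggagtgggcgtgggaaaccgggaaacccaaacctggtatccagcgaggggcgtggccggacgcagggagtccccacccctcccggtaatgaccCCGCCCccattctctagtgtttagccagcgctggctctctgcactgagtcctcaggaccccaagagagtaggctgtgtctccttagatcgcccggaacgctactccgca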

How the data were processed

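Per the file headers, the authors extracted spot intensity with Agilent Feature Extraction 11.5.1.1, with background subtraction, detrending and surrogate values for dim spots. The scanner files name the build rn4 for probe coordinates. The authors' deposited table holds log2 values. Set against the scanner files, its columns proved to be log2 signal with the 75th percentile of that array subtracted and no probe centring (75th percentiles from 0.00605 to 0.0141, medians from -3.21 to -2.82) and correlated most with their own array. The number of unused columns was 0.

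Outlier and control spots were left out, log2 processed signals were averaged per probe, 17 probes without a usable spot on every array were dropped, and each array's 75th percentile was subtracted. Probes well above background (at least 0.5 of spots) on at least 4 of 8 arrays were tested with limma 3.58.1 in R 4.3.3, with Benjamini-Hochberg adjustment over all of them. On simulated data of 25303 probes, of which 200 were changed, 50% of changes of 1 log2 unit and 1% of those of 0.5 were recovered, with 0 false calls. In the real data 34.2% of probes passed, which makes the adjusted threshold less strict, so these shares do not give the recovery there. A gene is represented by its brightest tested probe. Bounds set dim arrays to their lowest spot above background. Within-array differences were tested by exact two-sided permutation. Named are all members, both lists of close relatives, and in the other related lists genes among the 4 with the largest difference above background on all arrays. Further genes and all called genes of short counts were picked after their values were seen. The members, lists and tests were chosen with earlier results of these data known. Of the listed genes, Ptprb, Smad6, Mmrn2, Ecscr and Oosp1 were not analysed here, and Prok2 and Hgf were too dim to test. The number of arrays limits the precision. Alternatives covered scaling, background, filter, weights, blocks and left-out arrays.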

Additional observations from a re-analysis of the deposited data

Results flagged for a closer look

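A check of 64 groups, each of 4 arrays, for a value lying far from the remaining ones found 4 such groups, where chance gives about 1 in 20, here 3.2. PMSG-labelled array 4 stood apart in the level of Angpt2 minus that of Angpt1, at -0.74 against 0.51 to 0.71. Control-labelled array 3 stood apart in Vegfa minus Pgf, at 1.36 against 1.75 to 1.78. The same array stood apart in Vegfa relative to the endothelial markers, at 2.38 against 2.72 to 2.79, and in Eng relative to them, at 0.69 against 0.92 to 0.96. The endothelial marker mean of control-labelled array 3 was -0.67, and that of the other 7 arrays ran from -0.91 to -0.74.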

How the results depend on the processing

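Every member kept its direction under all alternatives run, which numbered 18 for Tek and 19 for each other gene. The 5 members called were 4 to 6 when 1 array was left out and 5 to 7 under the other fits on all arrays, with Flt1 and Eng among them each time. Among fits that left out 1 array, the count of all differing probes was lowest without control array 4 (6552) and highest without PMSG array 4 (11382). The slide rows were inferred from the names of the scanner files and are not stated by the labels. Within slide row 1 (2 arrays against 2) 3351 probes and 1 member, Eng, passed. Within slide row 2 the limma count was 0 probes and 0 members, with 6015 probes at an unadjusted p under 0.05. The replicate block gave 7346 probes and 5 members, with Tie1 (adjusted p = 0.0383) in place of Nrp1. The labels state no pairing by replicate number. Deviations of same-numbered arrays correlated at 0.0444, 0.0361, 0.183 and -0.0192, and those of other pairs from -0.176 to 0.155. Such values cannot exclude a pairing. Of the genes set against endothelial markers, 0 passed with normexp background, and Nrp1 against Kdr turned to 0.08 there. Higher calls made up 4452 of 8658, against 4182 of 9050 with quantile normalization and 2914 of 8448 with median centring, which moved the median of all probes to -0.05. Median centring left 1 fibroblast gene called.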

Other observations

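The spread between arrays was wider in the PMSG label over the whole array, with a larger SD than in the control label for 73.3% of the 25303 probes tested (median SDs 0.27 and 0.16, log2). In 9 of the 10 genes the SD over the 4 PMSG-labelled arrays exceeded that over the 4 control-labelled arrays, with medians of 0.28 and 0.18. Among PMSG-labelled arrays, array 3 had the lowest level in 5 of the 10 genes and array 2 the highest in 5.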
